A study of Mus musculus with 12 samples.

Results

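Serine synthesis, the folate-bound one-carbon pathway and asparagine synthesis are represented here by 10 genes. These are Phgdh, Psat1, Psph, Shmt1, Shmt2, Mthfd2, Mthfd1l, Aldh1l2, Asns and Pck2. They were chosen with earlier results of these data known, so a shared direction among them is not independent evidence. They are 10 of the 22180 genes that had a probe set with a single symbol in the platform annotation, and each had exactly 1 such probe set. All 10 had means above 4.20, the log2 value below which the dimmest 25% of genes lay, and no gene was filtered out. The cells were primary aortic smooth muscle cells of the inbred mouse strain C57BL/6J, and their RNA was measured on 12 Affymetrix whole-transcript arrays. They were cultured in DMEM and 10% FCS and used between passages 3 and 4. Of the 12 samples, 6 were grown at 0.3 g/l (1.7 mM) glucose and 6 at 4.5 g/l (25 mM), numbered 1 to 6 in each group. The sample labels give 1 week of culture and the series text gives 14 days. Nothing in the labels says whether samples came from separate cultures or animals, so the p-values cover the spread between these samples only, and that spread may be technical. No osmotic control was used here.

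Cells make serine from a glycolytic intermediate in a short chain of reactions, and serine then gives a one-carbon unit to folate when it is converted to glycine. In mitochondria this unit is oxidised and released as formate, which the cytosol uses to build purines, thymidylate and methionine. Asparagine is made from aspartate and glutamine. Many enzymes of these routes are known targets of the transcription factor ATF4, which is translated when amino acids run short or the endoplasmic reticulum is stressed. The question put to these genes is whether and how far their expression differs between the glucose levels.

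All 10 genes were lower in 4.5 g/l glucose. The falls ran from 1.36-fold for Shmt1 to 3.14-fold for Aldh1l2, with a median log2 difference of -0.95, where the median over all genes was -0.0069. Every one passed an adjusted p of 0.05 in limma (a moderated linear model, two-sided, with Benjamini-Hochberg adjustment over all 22180 genes), a threshold that 8.52% of all genes passed in this direction. The adjusted p-values lay between 0.000326 and 0.00701. Values are log2 RMA values throughout, in which 1 unit is a doubling of signal. In a culture, fewer cells of a type and less RNA per cell cannot be told apart. The arrays were quantile-normalized, so their medians lay between 4.92 and 5.05. Markers of smooth muscle were well above the dim range (Acta2 at 13.15 in 0.3 g/l and 13.83 in 4.5 g/l). Of these markers 6 of 8 rose, where 7.01% of all genes passed as higher. Of the 10 endothelial markers, the brightest were Emcn (11.71 and 11.28) and Cdh5 (11.10 and 10.51), far above the dim range. The dimmest were Cldn5 (5.26 and 5.08) and Kdr (5.52 and 5.41). Of 6 macrophage markers none passed; by their means over all arrays 3 lay below 4.20 (Ptprc, Adgre1 and Itgam) and 3 above it, at 7.33 and 7.32 for Cd68, 5.85 and 5.56 for Lyz2 and 5.21 and 5.11 for Csf1r.

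A single array stood apart in these genes. Replicate 4 of 0.3 g/l had the lowest value of its group in all 10 genes, as it did in 26.7% of all genes. It lay below the mean of the other 5 arrays by 0.47 for Mthfd2 at the least and by 1.39 for Aldh1l2 at the most. Against the mean of 4.5 g/l replicates 4 to 6 it differed by -0.18 for Mthfd1l to 0.31 for Shmt2. For these genes it thus lay nearer to those replicates than to the rest of its own group. It was not near every 4.5 g/l array: for Mthfd2 it was at 9.88, against 8.91 to 9.00 in 4.5 g/l replicates 1 to 3. With all arrays, every 4.5 g/l value was below every 0.3 g/l value in 5 of the 10 genes and in 2.90% of all genes. With that array left out this held for 10 of the 10 and for 11.0% of all genes, and 10 of 10 still passed, where 13.6% of all genes did. The smooth muscle marker mean of this array was 10.22, where the rest of its group had 9.07 to 9.29 and 4.5 g/l had 10.59 to 10.79. Its part in the spread of these genes beyond the values without it was not tested.

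**Figure D1:**
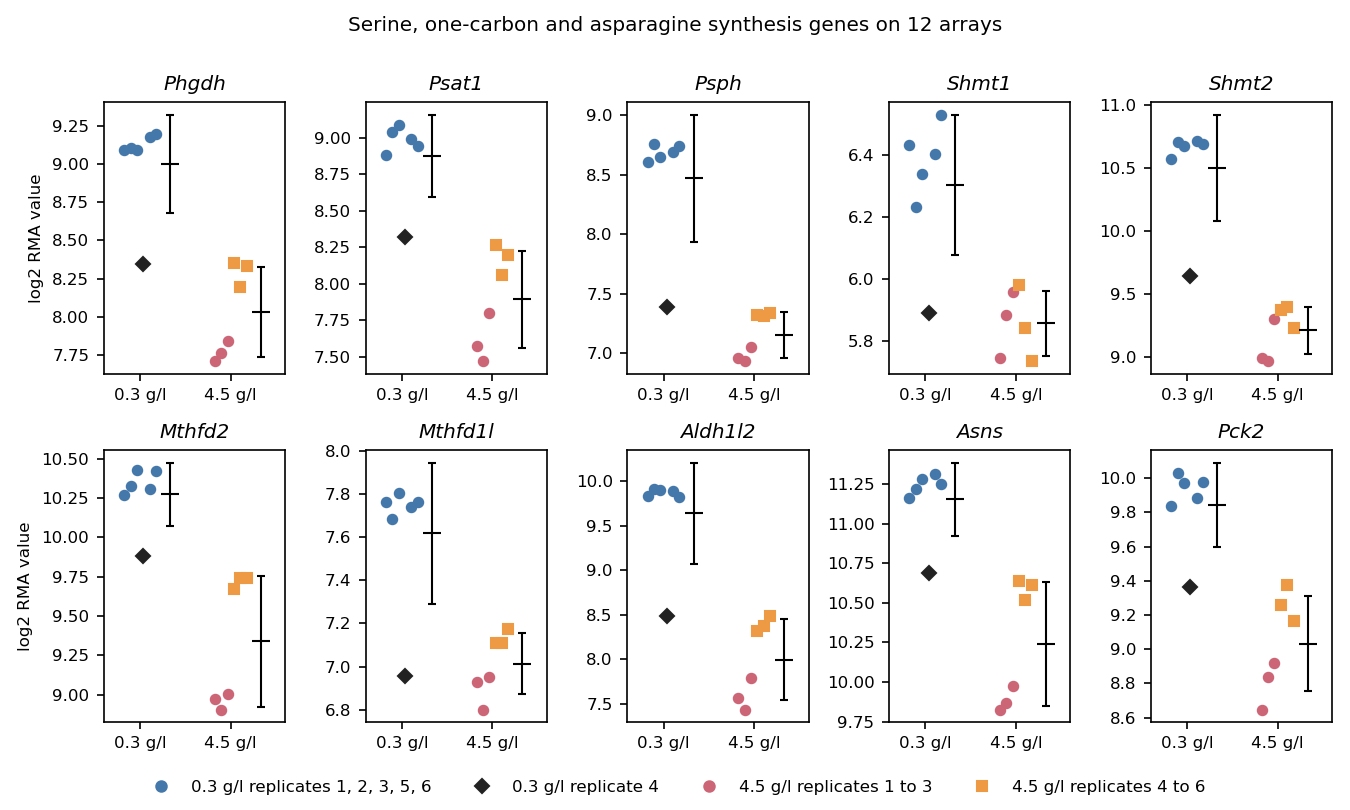
Log2 RMA value (vertical axis, scaled to each gene) of the 10 genes on each of 12 arrays, by glucose level; black bars are mean ± SD of 6 arrays. The 5 blue points of 0.3 g/l lie above all 4.5 g/l points in every panel. The black diamond, 0.3 g/l replicate 4, lies nearer to 4.5 g/l replicates 4 to 6 than to the blue points.

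The serine synthesis enzymes fell together, by about the same amount for the first and second steps and by more for the last. Phgdh, phosphoglycerate dehydrogenase, which commits carbon from glycolysis to serine, ran from 8.35 to 9.20 in 0.3 g/l with a median of 9.10, and from 7.71 to 8.35 in 4.5 g/l with a median of 8.02. The groups touched at 1 point, since 0.3 g/l replicate 4 (8.348) lay just under 4.5 g/l replicate 4 (8.351). The fall was 1.96-fold, from 9.00 ± 0.32 to 8.03 ± 0.29 (mean ± SD, n = 6; limma adjusted p = 0.00122).

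Psat1, the phosphoserine aminotransferase of the next step, ran from 8.32 to 9.09 in 0.3 g/l (median 8.97) and from 7.47 to 8.26 in 4.5 g/l (median 7.93). The ranges did not overlap, although the lowest 0.3 g/l array and the highest 4.5 g/l array were close. Psat1 was 1.98-fold lower (limma adjusted p = 0.00114). Psph, the phosphatase that releases serine, ran from 7.39 to 8.76 in 0.3 g/l (median 8.67) and from 6.93 to 7.34 in 4.5 g/l (median 7.18). It was 2.49-fold lower, and 5 of the 6 arrays of 0.3 g/l were at 8.60 or above (limma adjusted p = 0.000897). Without 0.3 g/l replicate 4 its log2 difference was -1.53 ± 0.09 (SE), against -1.32 ± 0.20 with all arrays.

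Serine hydroxymethyltransferase, which moves a carbon from serine to folate, has a mitochondrial form, Shmt2, and a cytosolic form, Shmt1. Shmt2 ran from 9.64 to 10.72 in 0.3 g/l (median 10.69) and from 8.96 to 9.40 in 4.5 g/l (median 9.26), with no overlap. Its fall of 2.46-fold had the smallest adjusted p of the 10 genes (log2 difference -1.30 ± 0.17, SE; limma adjusted p = 0.000326). Shmt1 ran from 5.89 to 6.53 in 0.3 g/l (median 6.37) and from 5.73 to 5.98 in 4.5 g/l (median 5.86). It was the smallest fall of the set, 1.36-fold, and the groups overlapped through 0.3 g/l replicate 4 alone (limma adjusted p = 0.00701). The Shmt1 probe set was the dimmest of the 10, and RMA compresses differences of dim probe sets.

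The mitochondrial enzymes that carry the folate-bound carbon onward also fell. Mthfd2, the dehydrogenase and cyclohydrolase that oxidises it, ran from 9.88 to 10.43 in 0.3 g/l (median 10.32) and from 8.91 to 9.74 in 4.5 g/l (median 9.34). The ranges did not overlap, and the 4.5 g/l arrays formed 2 tight sets, replicates 1 to 3 at 8.91 to 9.00 and replicates 4 to 6 at 9.67 to 9.74. The fall was 1.91-fold (limma adjusted p = 0.00222). Mthfd1l, the synthetase that releases formate for export, ran from 6.96 to 7.81 in 0.3 g/l (median 7.75) and from 6.80 to 7.18 in 4.5 g/l (median 7.03). It was 1.52-fold lower, and 0.3 g/l replicate 4 lay inside the range of 4.5 g/l (limma adjusted p = 0.00697).

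Aldh1l2, the mitochondrial dehydrogenase that oxidises the formyl group to CO2 and yields NADPH, fell most. It ran from 8.49 to 9.91 in 0.3 g/l (median 9.86) and from 7.43 to 8.49 in 4.5 g/l (median 8.05). In 0.3 g/l, 5 arrays lay close together at 9.83 to 9.91, and replicate 4 at 8.487 lay just under the highest 4.5 g/l array at 8.489. Its mean dropped from 9.64 ± 0.57 to 7.99 ± 0.46 (SD, n = 6), a log2 difference of -1.65 ± 0.26 (SE; limma adjusted p = 0.000962).

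Asparagine synthetase, Asns, and the mitochondrial phosphoenolpyruvate carboxykinase, Pck2, which turns oxaloacetate into phosphoenolpyruvate, were lower too. Asns ran from 10.69 to 11.31 in 0.3 g/l (median 11.24) and from 9.83 to 10.64 in 4.5 g/l (median 10.25), and fell 1.88-fold (limma adjusted p = 0.00217). Its groups were parted by a narrow gap between 0.3 g/l replicate 4 and 4.5 g/l replicate 4. Pck2 ran from 9.36 to 10.03 in 0.3 g/l (median 9.93) and from 8.65 to 9.38 in 4.5 g/l (median 9.04), and fell 1.76-fold (limma adjusted p = 0.00144). Its groups overlapped by a small margin, with 0.3 g/l replicate 4 (9.364) under 4.5 g/l replicate 5 (9.375).

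These 2 genes are the ones whose promoter windows held the letters TGATGNAA, the shape of the composite element for ATF4 and C/EBP factors that is known from amino acid response genes. Windows of 250 bases before to 50 after the annotated start (RefSeq, GRCm38.p6) were searched on both strands for TGATGNAA, for TGACGTCA (the cyclic AMP response element) and for CACGTG (the E-box); no 2 of these motifs overlapped in the windows of the genes described here. Windows were found for 9 of the 10 genes, without Aldh1l2. TGATGNAA stood in those of 2 of the 9 genes, and in 4.51% of the 27025 genes with a window. Neither of the other motifs stood in a window of the 9 genes, against 2.03% of all genes for TGACGTCA and 8.09% for CACGTG. The stretches around the matches are shown, with the match in capitals, each written 5′ to 3′ on the strand of its gene.
Asns: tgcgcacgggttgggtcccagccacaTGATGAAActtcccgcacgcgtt
Pck2: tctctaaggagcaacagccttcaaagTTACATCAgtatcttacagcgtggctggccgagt
The Asns stretch is chr6:7693210-7693258, minus strand, with the match at bases -23 to -16 from the start. The Pck2 stretch is chr14:55540137-55540196, plus strand, and its match at -103 to -96 reads TGATGNAA on the opposite strand. A match is a run of letters, not a measured binding site, and the other 7 genes may hold the motif outside these windows. The 2 genes with a match had falls of 1.88-fold and 1.76-fold, inside the range of the 7 genes with a window and no match (1.36-fold to 2.49-fold).

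The arrays of 4.5 g/l fell into replicates 1 to 3 and replicates 4 to 6 for most of these genes. In 8 of the 10, all of replicates 4 to 6 lay above all of replicates 1 to 3, as in 12.5% of all genes; the exceptions were Shmt1 and Shmt2. The step between the number ranges was 0.80 for Aldh1l2, 0.76 for Mthfd2, 0.70 for Asns, 0.56 for Psat1 and 0.52 for Phgdh. For Pck2 it was 0.46, for Psph 0.35, for Shmt2 0.25, for Mthfd1l 0.24 and for Shmt1 -0.0095. In 0.3 g/l, replicates 5 and 6 differed from replicates 1 to 3 by -0.035 (Psat1) to 0.13 (Shmt1), less than the smallest step of those 8 genes in 4.5 g/l; the difference between the groups' steps was not tested. The labels do not say what the numbers stand for. Endothelial marker means moved with the ranges, from 7.62 to 7.76 for the first and from 6.95 to 7.01 for the second range of 4.5 g/l. In 0.3 g/l they were 7.17 in replicate 4 and 7.68 to 7.73 in the others. Of these 10 markers 1 fell, Emcn, where 8.52% of all genes passed as lower. Without 0.3 g/l replicate 4, 3 markers fell, where 13.6% of all genes passed as lower. None of the markers was below 4.20, and their part in the result was not tested.

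Within replicates 1 to 3 of both groups the falls were larger for 10 of 10 genes than with all arrays. Aldh1l2 was 4.89-fold lower (log2 difference -2.29 ± 0.10, SE), Psph 3.23-fold and Shmt2 2.97-fold. Psat1 was 2.62-fold lower, Mthfd2 2.60-fold, Asns 2.52-fold and Phgdh 2.51-fold. All 10 passed there (limma adjusted p between 6.98e-05 and 0.0149), where 7.16% of all genes did. Within replicates 4 to 6 none passed in limma (adjusted p between 0.158 and 0.450), where 0.0406% of all genes passed as lower. An unadjusted limma p under 0.05 was found for 9 of the 10, and for 3699 of all 22180 genes in either direction. The log2 differences of the 10 members there were -0.35 (Mthfd1l) to -1.02 (Shmt2). That comparison contains 0.3 g/l replicate 4. With that array left out of replicates 4 to 6, leaving 2 against 3, all 10 passed (adjusted p between 0.000369 and 0.0132; 8.94% of all genes). The largest falls were then Aldh1l2 at 2.76-fold, Psph at 2.62-fold and Shmt2 at 2.60-fold, while Asns was 1.62-fold and Mthfd2 1.56-fold lower. Psph and Shmt2 thus differed less between the number ranges than Mthfd2 and Asns did, by sizes that were not tested against each other.

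**Figure D2:**
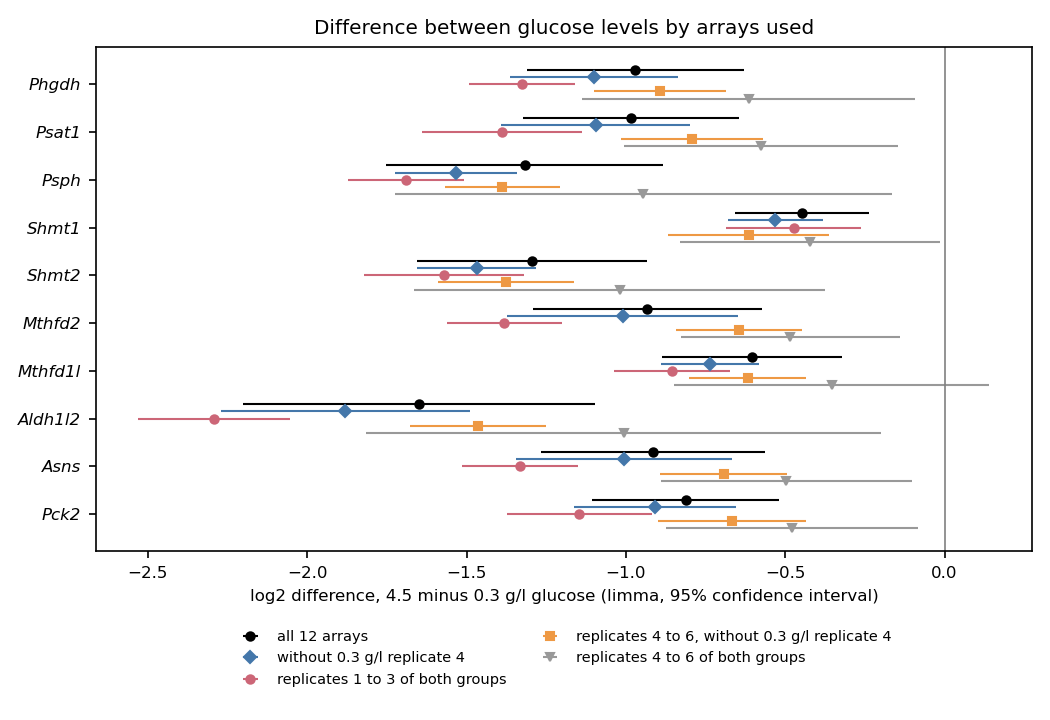
Log2 difference between 4.5 and 0.3 g/l glucose (horizontal axis) with its 95% confidence interval from limma for each of the 10 genes, by the arrays used. All points lie left of 0, and the grey triangles, replicates 4 to 6 with 0.3 g/l replicate 4 included, include the one interval that reaches past 0 (Mthfd1l, -0.35).

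Likeness within the set was measured as the root mean square difference between log2 profiles over the 12 arrays, each centred on its own mean, so that 0 means identical profiles. The closest were Mthfd2 and Asns (0.0692), then Phgdh and Psat1 (0.0875), Psat1 and Asns (0.0905) and Phgdh and Asns (0.0974). Psph was closest to Shmt2 (0.106). The most unlike were Shmt1 and Aldh1l2 (0.719), which had the smallest and the largest fall. All these profiles share the 12 arrays, the group difference and 0.3 g/l replicate 4.

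Among genes outside the set, Gpt2, the mitochondrial alanine aminotransferase, was nearest to Phgdh (0.0912) and Psat1 (0.129) and second nearest to Asns (0.125) and Pck2 (0.110). Lrp2, the endocytic receptor megalin, was nearest to Asns (0.100) and Mthfd2 (0.110). Aldh18a1, which starts proline synthesis, was nearest to Pck2 (0.0928), and Bcat1, the cytosolic branched-chain aminotransferase, nearest to Shmt2 (0.0931). Chac1, an enzyme that breaks down glutathione, was nearest to Aldh1l2 (0.113). Herpud1, of endoplasmic reticulum protein degradation, was nearest to Psph (0.118), followed by the glutamine carrier Slc1a5 (0.120). Shmt1 lay nearest to the retinol saturase Retsat (0.0691) and the RNA polymerase subunit Polr3e (0.0720), and Mthfd1l to Taf15 (0.0699) and Erlin1 (0.0713). The second nearest were Isg20 for Phgdh (0.130), Rab39b for Psat1 (0.130), Slc3a2 for Shmt2 (0.132), Eif4ebp1 for Mthfd2 (0.156) and Cdsn for Aldh1l2 (0.199). All of these genes fell in 4.5 g/l, by 1.36-fold (Retsat and Polr3e) to 3.01-fold (Chac1). They were picked for closeness to members that fell on the same arrays, which largely fixed this direction in advance.

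Several enzymes of the set have a relative that does the same or a similar reaction, mostly in the cytosol, and 5 such pairs were compared by their log2 difference within each array. Such a difference shows unequal change, and levels of the 2 probe sets cannot be set against each other. Shmt1 is both a member and a relative here. Its probe set was the dimmest of the members (means of 6.30 and 5.86), so RMA may understate its fall beside that of Shmt2, which was not tested. In 5 of 5 pairs the member fell more than its relative. The tests were two-sided exact permutation tests over all assignments of the arrays to groups of 6, adjusted over the 5 pairs. The members of all 5 pairs had already passed as lower, and Mthfd2l, Mthfd1, Aldh1l1 and Pck1 did not pass with all arrays. The direction of their ratios was thus largely fixed in advance, and those p-values mostly restate the falls of the members.

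Shmt2 fell against Shmt1 by 0.85 on the log2 scale, a 1.8-fold change of the ratio, with no overlap between groups (exact permutation p = 0.00216, the smallest these arrays allow; adjusted p = 0.00361). Mthfd2l, the other mitochondrial enzyme with the activity of Mthfd2, differed by -0.0086 (95% confidence interval -0.15 to 0.13; limma adjusted p = 0.958). It ran from 8.13 to 8.38 in 0.3 g/l and from 8.14 to 8.39 in 4.5 g/l, so the groups covered the same range. The Mthfd2 to Mthfd2l ratio fell 1.90-fold (exact permutation p = 0.00216; adjusted p = 0.00361).

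Mthfd1, the cytosolic enzyme that carries out the combined reactions of folate-bound carbon, differed by 0.17 (95% confidence interval -0.0040 to 0.35; limma adjusted p = 0.193), and it passed as higher in 4.5 g/l without 0.3 g/l replicate 4 (adjusted p = 0.0210). It ran from 8.26 to 8.77 in 0.3 g/l and from 8.50 to 8.77 in 4.5 g/l. The ratio of Mthfd1l to Mthfd1 fell 1.71-fold (exact permutation p = 0.0152; adjusted p = 0.0152), and its groups overlapped only through 0.3 g/l replicate 4, at -1.81. Aldh1l1, the cytosolic relative of Aldh1l2, differed by -0.027 (95% confidence interval -0.29 to 0.24), at means of 5.15 and 5.12. The Aldh1l2 to Aldh1l1 ratio fell 3.08-fold with no overlap (exact permutation p = 0.00216; adjusted p = 0.00361). Pck1, the cytosolic carboxykinase, differed by 0.036 (95% confidence interval -0.20 to 0.27), at means of 4.90 and 4.94. It was at 5.29 and 5.26 in 4.5 g/l replicates 1 and 2, and at 4.74 to 4.79 in the rest of that group. The Pck2 to Pck1 ratio fell 1.8-fold (exact permutation p = 0.00649, adjusted p = 0.00812). Its groups overlapped only through 0.3 g/l replicate 4, at 4.43, where 4.5 g/l reached 4.63. Aldh1l1 and Pck1 were near the dim range, where RMA compresses differences, so a change of either could be missed.

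**Figure D3:**
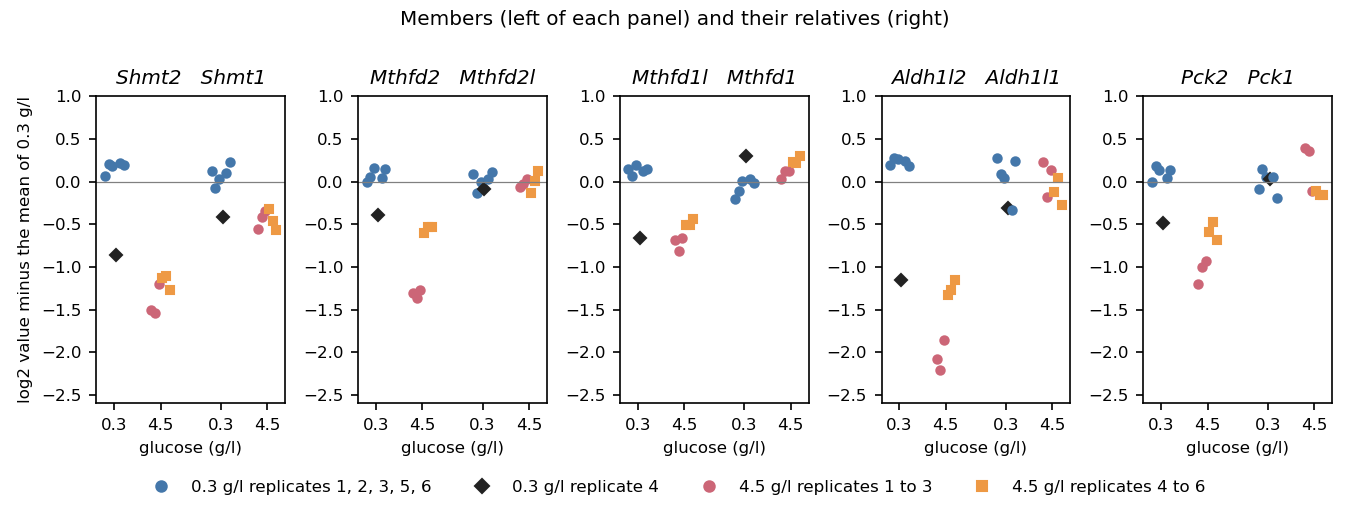
Log2 value minus the mean of the 0.3 g/l group (vertical axis) for each member and its relative on 12 arrays, at 0.3 and 4.5 g/l glucose (horizontal axis). Members drop in every panel; of the relatives, Shmt1 has a mean difference of -0.45, Aldh1l1 of -0.027, Mthfd2l of -0.0086, Pck1 of 0.036 and Mthfd1 of 0.17.

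Over all genes the background was 8.52% lower and 7.01% higher, and 13.6% and 10.3% without 0.3 g/l replicate 4. In the rest of the folate route, 4 of 16 measured genes fell and none rose (5 fell and 2 rose without that array). Those that fell were Sfxn1, the mitochondrial serine carrier (1.31-fold lower; limma adjusted p = 0.00103), Fpgs, which adds the glutamate tail that keeps folate in the cell (1.28-fold), the folate carrier Slc46a1 (1.54-fold) and Mtrr, which reactivates methionine synthase (log2 difference -0.53). Over the 16 genes the median log2 difference was 0.0090. Of 12 genes of glycine cleavage and serine use, 2 fell (4 without 0.3 g/l replicate 4), Cbs by 1.28-fold and Ptdss2 by 1.22-fold. Cbs joins serine to homocysteine, and Ptdss2 makes phosphatidylserine. The glycine cleavage genes Gldc and Amt did not pass, at log2 differences of 0.20 and 0.18.

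Around asparagine, 4 of 13 measured genes fell and 1 rose (7 and 1 without 0.3 g/l replicate 4). Over all genes 8.52% passed as lower and 7.01% as higher (13.6% and 10.3% without that array). The cytosolic aspartate aminotransferase Got1 was 2.66-fold lower, from 11.24 ± 0.64 to 9.83 ± 0.09 (SD, n = 6; limma adjusted p = 0.00118). Its mitochondrial counterpart Got2 did not pass, at a log2 difference of -0.19 (limma adjusted p = 0.0917). Gpt2 was 1.89-fold lower, and Cad, which uses aspartate for pyrimidine synthesis, 1.45-fold. Nars, the asparaginyl-tRNA synthetase of the cytosol, fell by 0.57 on the log2 scale, and the glutamine synthetase Glul rose by 0.29. The asparaginase genes Aspg and Asrgl1 did not pass, at -0.018 and 0.0013.

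Proline synthesis had 4 measured genes, of which Aldh18a1 fell 1.72-fold and Pycrl 1.17-fold (3 fell without 0.3 g/l replicate 4). In the methionine cycle and polyamine route, 3 of 11 fell (4 fell and 1 rose without 0.3 g/l replicate 4), among them the spermidine synthase Srm (1.67-fold; limma adjusted p = 0.000260) and Adi1 of methionine salvage (1.55-fold), with Mtap at 1.17-fold. Purine synthesis and salvage, which consumes one-carbon units, fell in 3 of 13 genes (5 without 0.3 g/l replicate 4): Atic, which uses a formyl-folate, was 1.49-fold lower, the salvage enzyme Aprt 1.33-fold and Gmps 1.16-fold. Gart, the other formyl-folate enzyme of that route, did not pass, at -0.039. Of 12 genes of gluconeogenesis and anaplerosis around Pck2, the mitochondrial malic enzyme Me3 rose 1.26-fold and none fell (2 fell without 0.3 g/l replicate 4). The rise of Me3 did not pass within either number range, or with the mean of its probe sets (log2 difference 0.15). The calls of Pycrl, Mtap and Gmps, at 1.16-fold to 1.17-fold, were lost when certain single arrays were left out. Pycrl did not pass without 0.3 g/l replicate 3, 5 or 6 or 4.5 g/l replicate 3, 4, 5 or 6, Mtap without 0.3 g/l replicate 3 or 5, and Gmps without 0.3 g/l replicate 3. Within replicates 1 to 3 alone, Fpgs, Ptdss2 and Aprt did not pass (log2 differences of -0.36, -0.27 and -0.29), nor did Pycrl, Mtap and Gmps (-0.13, -0.19 and -0.25). Over these 7 lists, 2 to 4 genes fell in each of 6, where the background was 8.52% lower and 7.01% higher. Without 0.3 g/l replicate 4 the background was 13.6% lower and 10.3% higher.

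ATF4 and its partners fell in 15 of 18 measured genes and none rose, where 8.52% of all genes passed as lower and 7.01% as higher. Without 0.3 g/l replicate 4, 16 fell, where 13.6% of all genes passed as lower. The list was written with earlier results of these data known, so its direction is not independent evidence. Atf4 itself had a log2 difference of -0.69 (limma adjusted p = 0.000822), the C/EBP partner Cebpg of -0.64 and Ddit3 of -2.20. The pseudokinase Trib3 was 3.85-fold lower and Sesn2 1.57-fold. Myc, a transcription factor known to act on serine and nucleotide synthesis genes, was 1.86-fold lower (limma adjusted p = 4.91e-05). Of the kinases that act on the initiation factor upstream of ATF4, Eif2ak3 fell by 0.33. Eif2ak4, which senses uncharged tRNA, differed by 0.13, Eif2ak1 by -0.11 and Eif2ak2 by -0.22, and these did not pass. The mean of the list was lowest in the first number range of 4.5 g/l (8.27 to 8.37) and slightly higher in the second (8.40 to 8.41). In 0.3 g/l it was 8.55 in replicate 4 and 9.24 to 9.28 in the other 5.

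**Figure D4:**
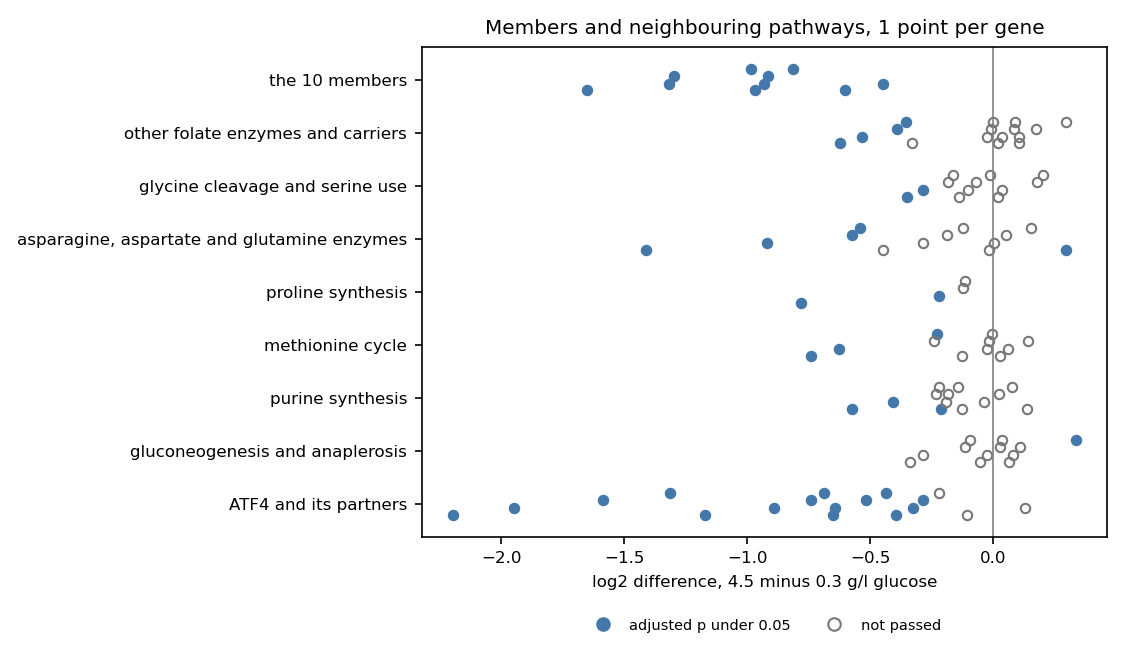
Log2 difference between 4.5 and 0.3 g/l glucose (horizontal axis), 1 point per gene, for the 10 members and 8 neighbouring gene lists; filled points passed an adjusted p of 0.05 in limma. The 10 members lie between -1.65 and -0.45, while most genes of the 7 metabolic lists lie near 0 and 15 of the 18 genes around ATF4 are filled points below 0.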

How the data were processed

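The authors deposited 1 table of log2 values for 41345 probe sets and 12 arrays, produced by RMA in Affymetrix Expression Console per the submitters' processing notes. Versions, genome build and array batches are not given in the sources used here. That the scale is log2 follows from the range of the values (0.60 to 13.90, none missing). RMA quantile-normalizes arrays, which hides any difference in RNA content per cell. A gene was its probe set with a single symbol in GEO's platform annotation (23521 probe sets; 1814 had several symbols and 16010 were unnamed here), the one with the highest mean where there were several. Groups came from the sample labels. The comparison used limma 3.58.1 in R 4.3.3 (lmFit and eBayes, all 12 arrays, no block), and pair ratios used exact permutation tests in SciPy 1.17.1. Both were tested on simulated data. List genes were found by symbol or, through RefSeq synonyms, by Entrez ID. The members, lists and alternatives were chosen with earlier results of these data known. Named genes were the members, their relatives, up to 3 called genes per list by smallest p, and the 2 nearest profiles of each member among genes above the dimmest 25%, leaving out predicted genes; other list genes were named after their values were seen. Figures were drawn with matplotlib 3.10.9. Arrays give no read depth, and their number limits the precision.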

Additional observations from a re-analysis of the deposited data

Results flagged for a closer look

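In each group of 6 arrays, the gap between the most extreme array and its neighbour was divided by the group's range, and a quotient above Dixon's critical value was picked out. Chance gives about 1 in 20 groups. Here 33 of 106 were picked out, 32 of them for 0.3 g/l replicate 4 lying lowest, so they are not independent of each other. The rule was not run over all genes, in 26.7% of which that array lay lowest of its group. Whether the share picked out is particular to these genes was therefore not tested. Among the members, Shmt1 was the one not picked out. The quotients were 0.877 for Phgdh, 0.729 for Psat1, 0.888 for Psph, 0.862 for Shmt2, 0.697 for Mthfd2, 0.854 for Mthfd1l, 0.941 for Aldh1l2, 0.748 for Asns and 0.715 for Pck2.

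In neighbouring pathways the same array stood apart for Sfxn1 (0.738), Got1 (0.940), Gpt2 (0.876), Cad (0.647), Aldh18a1 (0.856), Adi1 (0.817), Atic (0.795), Myc (0.631) and Trib3 (0.898). Among the genes of like profile it did so for Isg20 (0.814), Herpud1 (0.953), Slc1a5 (0.865), Retsat (0.829), Polr3e (0.740), Bcat1 (0.849), Slc3a2 (0.939), Lrp2 (0.762), Eif4ebp1 (0.711), Taf15 (0.773), Erlin1 (0.738), Chac1 (0.860) and Cdsn (0.853). Those genes were chosen for profiles like the members', which already held that array. The ratio of Mthfd1l to Mthfd1 was lowest in that array (0.797), and in 4.5 g/l it was lowest in replicate 2 (0.700).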

How the results depend on the processing

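All 10 members passed as lower under every alternative run for them except replicates 4 to 6 alone, where 0 passed in limma. There 9 members had an unadjusted limma p under 0.05, as did 3699 of all 22180 genes in either direction. Over all genes 30 passed there, 9 lower and 21 higher. Leaving out single arrays moved the count over all genes between 2514 and 5295, with 1303 to 3007 lower and 1202 to 2288 higher; the highest of each came without 0.3 g/l replicate 4. Array weights gave 5419, with 3072 lower and 2347 higher. The pair ratios of Shmt2, Mthfd2, Mthfd1l, Aldh1l2 and Pck2 to their relatives were -1.10, -1.38, -1.05, -2.22 and -1.32 within replicates 1 to 3, and -0.60, -0.47, -0.50, -1.03 and -0.38 within replicates 4 to 6, where an exact test of 3 against 3 cannot go below p = 0.1. Same-numbered arrays deviated together only weakly (correlations -0.046 to 0.17), so the numbers were not taken to pair samples. With the replicate number as a block the ratios were -0.85, -0.92, -0.78, -1.62 and -0.85, with adjusted p of 0.0521, 0.0521, 0.0625, 0.0521 and 0.0625 in an exact sign-flip test that cannot go below p = 0.0312 before adjustment. Under that block 10 of 10 members still passed in limma, while Pycrl, Mtap and Gmps did not (adjusted p = 0.0853, 0.0514 and 0.0643), and over all genes the count stayed within 1.5 times. The 12 arrays limit the precision, and dim probe sets such as Aldh1l1 and Pck1 limit what their ratios can show.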
